A study of Mus musculus with 3 samples.

Results

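The collagen chain genes are the genes that encode the alpha chains of the collagens. They were taken as all genes of the deposited table whose name is Col, a number, the letter a and a second number, which gave 44 of 55573 genes and chains of 27 collagen types. The levels came from UMI-RNAseq, in which a random tag on each molecule (unique molecular identifier, UMI) lets PCR copies be removed, of NIH3T3, a mouse fibroblast cell line, grown without treatment. There were 3 libraries of this 1 condition, called library 1, library 2 and library 3 here, so no condition could be compared with another. Values were deposited as FPKM (counted fragments scaled by the length of the gene in kilobases and by the size of the library), and totals recovered from these values were 14423209, 13959723 and 14307241 fragments in libraries 1, 2 and 3. No source used here says if separate cultures were sampled, so a spread or p-value over the libraries may cover technical differences only. The extraction text of the labels mentions retina, whereas the cell line is given as NIH3T3. Of 11 retina markers, 0 reached a mean of 1 FPKM, their summed level was 1.01 to 1.61 FPKM, the highest was Rcvrn with a mean of 0.363 FPKM, and Nrl and Pax6 were listed at 0. Of 12 fibroblast markers, 9 reached 1 FPKM, with a summed level of 6198 to 6332 FPKM, although Fap (0.0378 FPKM) and Postn (0.494 FPKM) stayed below it and Lum was listed at 0.

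Collagens are the main structural proteins of the extracellular matrix. An alpha chain carries a repeat of glycine followed by 2 further residues, which lets chains wind around each other into a triple helix, and a mature molecule may hold copies of 1 chain or a mixture of chains from different genes. Fibrillar collagens (types I, II, III, V, XI, XXIV and XXVII) pack side by side into fibrils, network-forming collagens (types IV, VIII and X) build sheets such as the basement membrane, type VI forms beaded filaments, FACIT collagens attach to the surface of fibrils, and further classes are anchored in membranes or carry interruptions between many short helices. Fibroblasts are known as the main source of fibrillar collagen in connective tissue.

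The repeat that makes a chain a collagen could be read directly in the coding sequence, as a glycine codon (GGN) at a spacing of 3 codons. The sequences below are shown because the 7 genes have the highest FPKM of all collagen chain genes and because they show how an unbroken fibrillar helix differs from a helix with interruptions. They were taken from the GENCODE M21 transcripts on GRCm38 and are spliced, so each location runs from the first to the last base with any introns included. Capitals mark the glycine codons of the repeat. The first 4 are fibrillar chains, and each line holds 108 bases from the start of the longest uninterrupted tract: Col1a2 (ENSMUSG00000029661, codons 97 to 132, exons 6 to 8, chr6:4512406-4515534, plus strand), Col1a1 (ENSMUSG00000001506, codons 168 to 203, exons 6 to 8, chr11:94939451-94939957, plus strand), Col3a1 (ENSMUSG00000026043, codons 164 to 199, exons 5 to 7, chr1:45323762-45325822, plus strand) and Col5a2 (ENSMUSG00000026042, codons 211 to 246, exons 8 to 10, chr1:45422386-45426996, minus strand).
Col1a2: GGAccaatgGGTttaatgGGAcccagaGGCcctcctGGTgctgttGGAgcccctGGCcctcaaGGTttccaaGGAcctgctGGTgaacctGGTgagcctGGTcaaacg
Col1a1: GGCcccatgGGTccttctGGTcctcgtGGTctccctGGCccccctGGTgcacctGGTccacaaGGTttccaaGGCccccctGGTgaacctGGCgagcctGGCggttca
Col3a1: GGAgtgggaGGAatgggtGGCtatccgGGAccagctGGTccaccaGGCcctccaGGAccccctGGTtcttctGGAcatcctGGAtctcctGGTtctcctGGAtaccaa
Col5a2: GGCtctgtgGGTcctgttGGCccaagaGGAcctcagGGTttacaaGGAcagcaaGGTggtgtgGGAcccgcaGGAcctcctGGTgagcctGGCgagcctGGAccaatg

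The other 3 lines show, in 2 network chains and 1 FACIT chain, the first break of fewer than 8 codons between neighbouring tracts, a limit set so that the break and both its sides could be seen in 1 line: Col4a1 (ENSMUSG00000031502, codons 209 to 240, exons 11 to 13, chr8:11241182-11242808, minus strand), Col4a2 (ENSMUSG00000031503, codons 402 to 435, exon 20, chr8:11415946-11416047, plus strand) and Col16a1 (ENSMUSG00000040690, codons 411 to 443, exons 17 to 19, chr4:130058993-130059468, plus strand). The glycine codons keep their spacing up to the break and take it up again after it. The break shown held 2 codons in Col4a1, 4 in Col4a2 and 3 in Col16a1, beyond the last complete triplet. These are not the first breaks of any length, which held 10, 12 and 14 codons.
Col4a1: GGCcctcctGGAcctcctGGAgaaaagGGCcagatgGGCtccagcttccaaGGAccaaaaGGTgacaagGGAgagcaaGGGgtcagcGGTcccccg
Col4a2: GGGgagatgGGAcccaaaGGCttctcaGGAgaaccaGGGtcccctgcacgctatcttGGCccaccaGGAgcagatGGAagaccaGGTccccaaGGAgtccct
Col16a1: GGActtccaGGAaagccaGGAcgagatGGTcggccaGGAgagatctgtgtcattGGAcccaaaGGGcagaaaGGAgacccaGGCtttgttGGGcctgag

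This repeat was shared by all collagen chain genes, which follows from the choice by name, since the repeat is what makes a chain a collagen. A tract of at least 20 glycine triplets was present in the coding sequence of 44 of 44 collagen chain genes and in 20 of 21358 other genes with a complete coding sequence (0.0936%), among them Adipoq, C1qb, Colq and Marco, whose proteins are known to carry collagen-like domains. Tracts of at least 100 triplets were found in 15 collagen chain genes and in 0 of the other genes. The fibrillar chains had the longest tracts, with a median of 338 triplets (216 to 344) in only 2 or 3 tracts a gene. Network chains had a median longest tract of 45 triplets and 4 to 24 tracts a gene, and FACIT chains a median longest tract of 57. In the beaded filament chains 7.95% to 31.9% of the codons lay in such tracts, against 53.5% to 77.2% in the fibrillar chains. The repeat was also visible in the exons. Of 1917 coding exons with coding exons on both sides, 63.8% had a length that is a multiple of 9 bases, the length of 1 triplet, against 13.7% of 157098 such exons of other genes, and 469 (24.5%) were exactly 54 bases long, against 0.444% of the others. Among the fibrillar chains 83.9% of these exons were multiples of 9 bases, and 305 were 54 bases long. Within the glycine codons of the tracts, T at the last position was most frequent in the 2 type I chains, with 53.8% in Col1a1 and 51.3% in Col1a2. The other fibrillar chains ranged from 16.1% in Col27a1 to 41.2% in Col2a1, and Col4a1 and Col4a2 had 21.3% and 14.99%. Identical sequence between genes was counted over whole transcripts, on either strand, and not within the repeat alone. Of the 75-nt words in the transcripts of a gene, few also occurred in another gene. They were at most 0.825% in the 10 collagen chain genes with the highest FPKM, and 4.24% in Col9a3. Such words include bases where annotated genes overlap, as Col9a3 does with Tcfl5 over 234 bases. The share of these words that lay in the repeat was not determined.

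**Figure D1:**
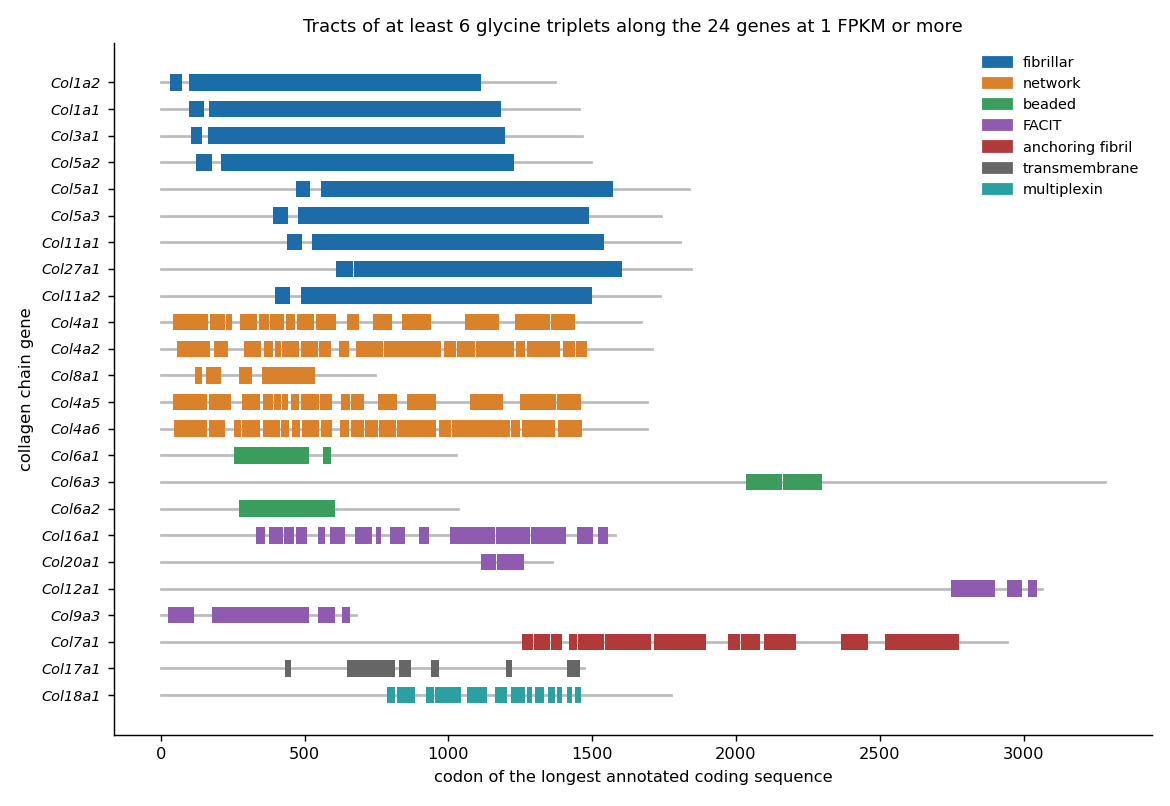
Glycine repeat along the coding sequence of the 24 collagen chain genes with a mean of at least 1 FPKM. The x axis gives the codon, grey lines span the coding sequence, and coloured blocks are tracts of at least 6 glycine triplets, coloured by class. The fibrillar genes show a short block and then 1 long block of 337 to 344 triplets, which in Col27a1 is split into 217 and 93 triplets. The type IV genes and Col16a1 show many shorter blocks, whereas the network gene Col8a1 has only 4, the longest of 61 triplets.

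The collagen chain genes covered a wide range of levels, with a gap just below 1 FPKM. A mean of at least 1 FPKM was found for 24 of 44 collagen chain genes (54.5%), and each of these 24 was at or above 1 FPKM in every library. The same limit was passed by 23.2% of all 55573 genes and by 49.2% of the 21980 protein-coding genes, so the share of collagen chain genes was near that of protein-coding genes. A mean of at least 100 FPKM was reached by 10 of 44 collagen chain genes (22.7%), against 5.21% of protein-coding genes. This count depends on the gene length used. With the longest annotated isoform, Col5a1, Col6a1 and Col6a3 fell below 100 FPKM, to 77.7, 74.5 and 54.3 FPKM. The share of protein-coding genes was not determined with that length. The lowest gene above the limit was Col11a2 with 1.56 FPKM and the highest below it was Col6a4 with 0.322 FPKM. Between the highest and the lowest of the 24 genes the mean FPKM differed 987-fold. Summed up, the collagen chain genes took 0.739% ± 0.00884 of all FPKM (SD, n = 3) and 1.20% ± 0.00527 of all fragments, or 172848, 168193 and 170886 fragments in libraries 1, 2 and 3. The RNA came from many cells at once, so a low level in all cells and a higher level in few cells cannot be told apart.

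**Figure D2:**
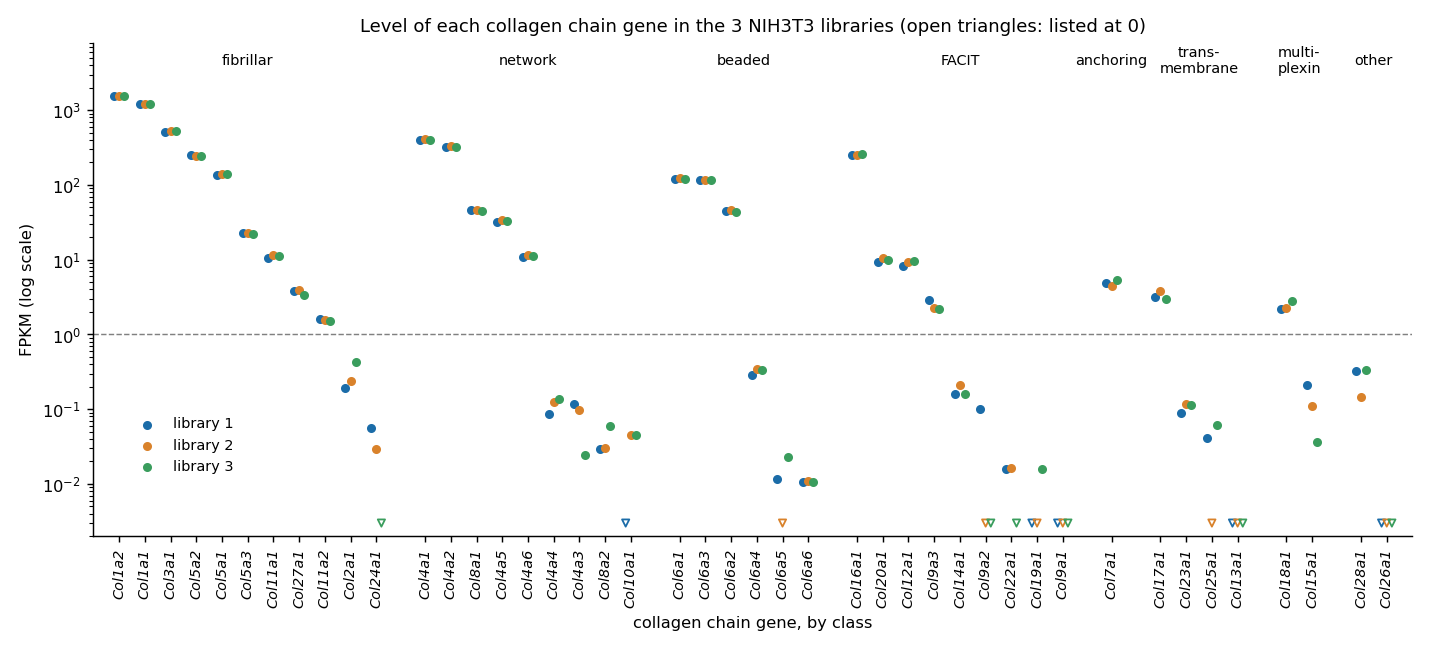
FPKM of each of the 44 collagen chain genes on a log scale, grouped by class, with 1 point per library and a dashed line at 1 FPKM. Open triangles at the bottom mark libraries in which a gene was listed at 0. Between 0.322 and 1.56 FPKM, no gene had its mean, and every class other than the 2 genes under other has at least 1 gene above the line.

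The fibrillar chains were the most abundant class. Of 11 fibrillar genes, 9 had a mean of at least 1 FPKM, 5 of at least 100 FPKM, and only Col2a1 and Col24a1 were below 1 FPKM. The 2 chains of type I collagen, the main collagen of skin, tendon and bone, were first and second of all collagen chain genes. Col1a2, which encodes the alpha2(I) chain, stood at 1555, 1539 and 1532 FPKM in libraries 1, 2 and 3, a mean of 1542 ± 11.7 FPKM (SD, n = 3) and rank 25 of all genes. Col1a1, which encodes the alpha1(I) chain, stood at 1225, 1218 and 1209.6 FPKM, a mean of 1218 ± 7.80 FPKM and rank 38. The values of these genes did not overlap in any library. Together they made up 54.2% of the summed collagen FPKM and 47.5% of the collagen fragments, which are not divided by length. Col3a1, the chain of type III collagen, which is found with type I in elastic tissues, stood at 519, 529 and 522 FPKM and at rank 153.

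Type V collagen, which joins type I inside fibrils and limits their width, was found with all 3 of its chains. Col5a2 stood at 248, 247 and 247 FPKM, with a CV (SD divided by the mean) of 0.277% that was the smallest among the 24 genes at or above 1 FPKM. Col5a1 stood at 136, 139 and 139.6 FPKM. Col5a3, the least widespread of the type V chains, stood at 23.0, 22.8 and 22.4 FPKM, below the other 2 chains in every library. The type XI chains are counterparts of type V in cartilage. Col11a1 stood at 10.5, 11.4 and 11.3 FPKM, and Col11a2 at 1.60, 1.55 and 1.54 FPKM. Col27a1 stood at 3.77, 3.93 and 3.40 FPKM. The major cartilage collagen gene Col2a1 was low in each library, at 0.191, 0.237 and 0.424 FPKM, and Col24a1 was at 0.0562 and 0.0290 FPKM in libraries 1 and 2 and at 0 in library 3.

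The network-forming chains came next, with 5 of 9 genes at or above 1 FPKM. Type IV collagen is the scaffold of basement membranes, and its chains are known to assemble in fixed combinations, of which alpha1 with alpha2 is the widespread form. Col4a1 stood at 399, 407 and 399.7 FPKM (402 ± 4.22, SD, n = 3) and Col4a2 at 320.5, 330.4 and 324 FPKM (325 ± 5.03). The pair stood at ranks 207 and 268 of all genes, and the lowest value of Col4a1 was above the highest of Col4a2. The chains of the less widespread forms were lower. Col4a5 stood at 31.7, 33.8 and 33.2 FPKM and Col4a6 at 10.7, 11.4 and 11.3 FPKM. Col4a3 and Col4a4, which form a network with Col4a5 in the kidney glomerulus, had means of 0.0806 and 0.116 FPKM from 10 and 28 fragments over all libraries. Col8a1, a short-chain collagen of vessel walls and of the membrane beneath the corneal endothelium, stood at 45.6, 46.8 and 45.2 FPKM, whereas its partner Col8a2 rested on 1, 1 and 2 fragments. Col10a1, a marker of hypertrophic cartilage, had a mean of 0.0301 FPKM.

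Type VI collagen makes beaded filaments close to cells. Its 3 classical chains were all above 1 FPKM, and the 3 chains found later, Col6a4, Col6a5 and Col6a6, were all below it. Col6a1 stood at 121, 123 and 120.5 FPKM and Col6a3, the longest of the classical chains, at 116, 118 and 115 FPKM. Col6a2 was lower, at 44.6, 46.2 and 43.9 FPKM. Within each library, Col6a1 was above Col6a3 and Col6a3 above Col6a2, but across libraries the ranges of Col6a1 and Col6a3 lay less than 3 FPKM apart. Col6a5 and Col6a6 each rested on 3 fragments over all libraries, and Col6a4 on 37.

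The FACIT class was carried by 1 gene. Col16a1, whose product lies at the surface of fibrils and near basement membranes, stood at 255, 254 and 259 FPKM, at rank 368 of all genes. The next FACIT genes were Col20a1, at 9.43, 10.6 and 9.85 FPKM, and Col12a1, a chain of dense connective tissue, at 8.32, 9.22 and 9.62 FPKM. Col9a3 stood at 2.86, 2.28 and 2.22 FPKM, whereas the other chains of cartilage type IX collagen were near 0, with a mean of 0.0333 FPKM for Col9a2 and 0 for Col9a1. Col14a1, Col19a1 and Col22a1 had means of 0.177, 0.00536 and 0.0107 FPKM.

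Of the remaining classes, 3 genes passed 1 FPKM. Col7a1, the chain of the anchoring fibrils that fasten skin epithelium to the dermis, stood at 4.90, 4.50 and 5.34 FPKM. Col17a1, the transmembrane collagen of hemidesmosomes, stood at 3.21, 3.83 and 2.99 FPKM. Of 6 epithelial markers only Krt14 passed 1 FPKM, at 8.39 FPKM, and Epcam and Krt5 were listed at 0. Whether epithelial cells or their RNA had a part in the levels of Col7a1 and Col17a1 was not tested. Col18a1, the multiplexin whose end fragment is endostatin, stood at 2.20, 2.28 and 2.76 FPKM, while the other multiplexin Col15a1 had a mean of 0.120 FPKM. The transmembrane chains Col23a1 and Col25a1 had means of 0.106 and 0.0341 FPKM, and Col28a1, a von Willebrand factor A domain collagen, 0.269 FPKM.

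Counting error limits what can be said of the 20 genes below 1 FPKM. They rested on 0 to 39 fragments over all libraries, 9 of them on 1 to 9 fragments, so the order of neighbouring genes could often not be resolved at this depth. The interval from counting error alone (exact Poisson, 95%) was 0.227 to 0.443 FPKM for Col6a4, 0.178 to 0.431 FPKM for Col2a1 and 0.157 to 0.432 FPKM for Col28a1, and these intervals overlapped, whereas all 3 lay above that of Col10a1, 0.00816 to 0.0766 FPKM. Col9a1, Col13a1 and Col26a1 had 0 fragments in every library, and their exact Poisson intervals reached up to 0.0402, 0.0390 and 0.0663 FPKM. A limit of 3 fragments over the 3 libraries corresponds to 0.0327, 0.0317 and 0.0539 FPKM. All of these intervals and limits cover counting error only.

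Among the 24 genes above 1 FPKM, most neighbours in the order of deposited FPKM had separate ranges over the libraries. Of 23 pairs of neighbours in the order of mean FPKM, the ranges of 17 did not overlap and those of 6 did. These were Col8a1 and Col6a2, Col4a6 and Col11a1, Col11a1 and Col20a1, Col20a1 and Col12a1, Col27a1 and Col17a1, and Col9a3 and Col18a1. Compared within each library, only Col9a3 and Col18a1 changed their order. None of the 9 pairs formed by the first 10 genes overlapped. The order also depends on the gene length used. With the longest isoform, Col4a2 stood above Col4a1, Col5a2 above Col16a1 and Col27a1 above Col7a1, although these pairs had separate ranges in deposited FPKM. Col6a2 also stood above Col8a1, Col20a1 and Col12a1 above Col11a1, and Col18a1 above Col9a3. Col11a2 was at 0.906 FPKM with this length, below the limit of 1.

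Chains that join in the same molecule were then compared as ratios within each library. Pairs chosen only as chains of the same class were also compared: Col1a1 with Col3a1, Col4a1 with Col4a5, and Col5a1 with Col11a1. A two-sided exact sign-flip permutation test over the 3 libraries was used for 10 chain ratios, for which 0.25 is the smallest p possible. Each of the 10 reached it, with p = 0.25 before and after Benjamini-Hochberg adjustment in the exact test, so the design could not give p below 0.05. All ratios kept their direction in 3 of 3 libraries. In type I collagen, whose usual molecule holds more alpha1 than alpha2 chains, the ratio of Col1a2 to Col1a1 was 1.27, 1.26 and 1.27 in FPKM (mean 1.27 ± 0.00284, SD, n = 3). The ratio of Col4a1 to Col4a2 was 1.24, 1.23 and 1.23 (1.24 ± 0.00737), that of Col5a2 to Col5a1 1.79 ± 0.02499, and that of Col5a1 to Col5a3 6.08 ± 0.153. In type VI collagen, Col6a1 stood 1.04 ± 0.00418 times as high as Col6a3 and 2.71 ± 0.0402 times as high as Col6a2, and the ratio of Col6a3 to Col6a2 was 2.59 ± 0.0294. Col1a1 was 2.33 ± 0.0308 times as high as Col3a1. Col4a1 was 12.2 ± 0.318 times as high as Col4a5, and Col5a1 12.5 ± 0.418 times as high as Col11a1. For type VIII, the ratio of Col8a1 to Col8a2 rested on 1 or 2 fragments of Col8a2 and was not tested. It was 1538 (276 to 60754), 1526 (274 to 60311) and 756 (209 to 6247), with the interval from counting error in parentheses. Against a floor of 3 fragments of Col8a2 in each library, the ratio was 513, 509 and 504.

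The gene length behind the FPKM bears on any ratio between genes. The deposited values were matched by the mean length of all annotated isoforms of a gene, which for collagen chain genes includes many short ones. The 44 genes had 224 annotated isoforms, of which 106 were protein coding and 118 were of other types such as retained introns. Col1a1, for example, had 1 coding isoform of 5930 nt and 3 other isoforms of 337 to 493 nt, so its mean length of 1781 nt was 3.33 times shorter than the longest. Among the 24 genes at or above 1 FPKM, the longest isoform was 2.04 times as long as the mean in the median, with a range from 1.09 in Col6a2 to 3.33 in Col1a1, compared with a median of 1.72 over all 12905 genes at or above 1 FPKM. With the longest isoform as length, the ratio of Col1a2 to Col1a1 was 1.80, and with fragments not divided by length it was 1.63, so Col1a2 stayed higher in both. The ratio of Col4a1 to Col4a2 changed direction, to 0.952 with the longest isoform and to 0.976 in fragments. The ratio of Col6a1 to Col6a3 was 1.37 with the longest isoform and 0.557 in fragments, where the mean isoform lengths are 2513 nt for Col6a1 and 4716 nt for Col6a3. The ratio of Col5a2 to Col5a1 was 1.43 with the longest isoform and 1.13 in fragments, and that of Col5a1 to Col5a3 was 4.17 and 5.73. The ratio of Col6a1 to Col6a2 was 1.81 with the longest isoform, that of Col6a3 to Col6a2 1.32 and that of Col4a1 to Col4a5 6.07. The ratio of Col5a1 to Col11a1 was 20.3, and that of Col1a1 to Col3a1 moved little, to 2.15. Which isoforms the cells made was not measured here.

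**Figure D3:**
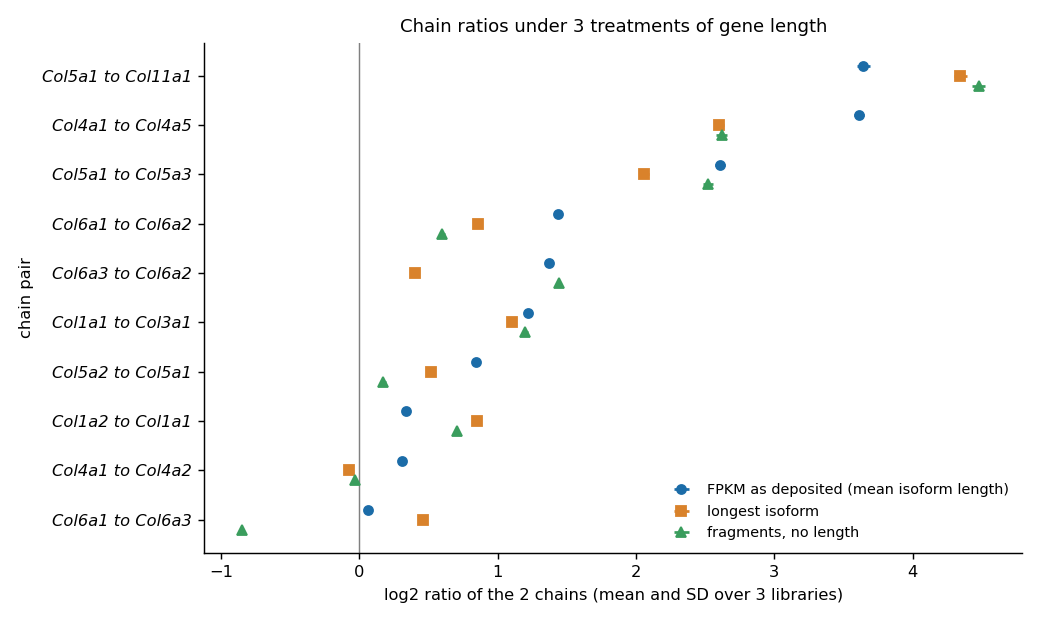
Ratio of 10 chain pairs on the log2 scale, with 1 row per pair and mean and SD over 3 libraries. Circles use the deposited FPKM, squares the longest annotated isoform and triangles fragments not divided by length. Error bars are mostly smaller than the symbols, the points for Col4a1 to Col4a2 lie on both sides of 0, and the triangle for Col6a1 to Col6a3 is the only other point below 0.

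Divided over classes, fibrillar chains made up 72.8% ± 0.234 of the summed collagen FPKM (SD, n = 3), network-forming chains 16.03% ± 0.185, beaded filament chains 5.56% ± 0.0630 and FACIT chains 5.44% ± 0.0729. The anchoring fibril chain took 0.0964%, the transmembrane chains 0.0683%, the multiplexins 0.0497% and the remaining 2 genes 0.00528%. The fibrillar sum exceeded the network sum 4.54 ± 0.0670 times and the beaded sum 13.1 ± 0.177 times, and the network sum exceeded the beaded sum 2.89 ± 0.0237 times. Each of these 3 ratios kept its direction in 3 of 3 libraries, with p = 0.25 in the exact permutation test and 0.33 after adjustment over the 4 class ratios. Beaded and FACIT sums were not separated in FPKM, with ratios of 1.02, 1.04 and 0.997 in libraries 1, 2 and 3 and p = 0.5 in the exact permutation test. In fragments, not divided by length, their ratio was 1.76, and with the longest isoform 1.53. In fragments the fibrillar share was 68.4% and the beaded share 8.82%.

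**Figure D4:**
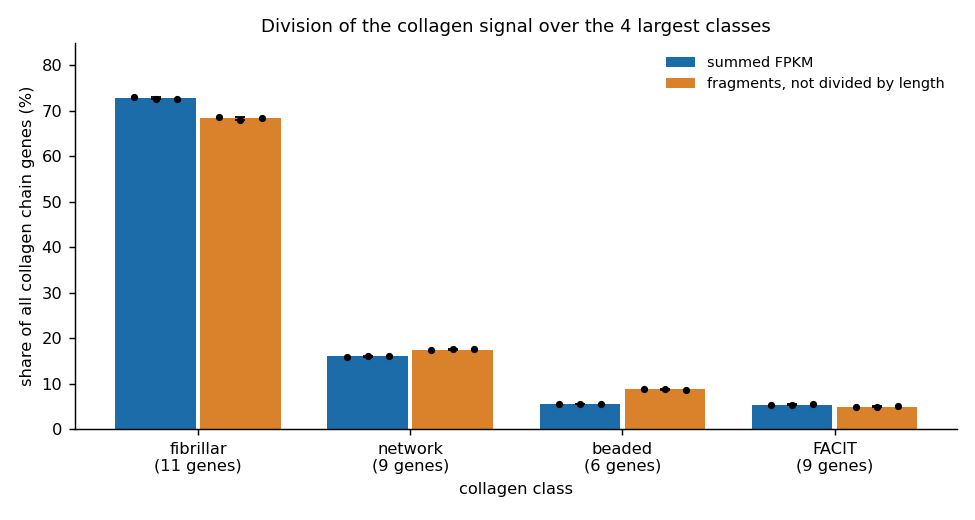
Share of the 4 largest classes in the signal of all collagen chain genes, in percent. Bars are means over 3 libraries with SD, black points are the libraries, and the 2 colours are summed FPKM and fragments not divided by length. The fibrillar class holds 72.8% of the FPKM and 68.4% of the fragments, and the beaded class rises from 5.56% to 8.82%.

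The 3 libraries gave close values for the collagen chain genes. The median CV of the 24 genes at or above 1 FPKM was 1.99%, from 0.277% in Col5a2 to 14.5% in Col9a3. Their median SD of log2(FPKM + 1) was 0.0236, compared with 0.0571 over all 12905 genes at or above 1 FPKM. These sets of genes were not matched for their number of fragments, on which counting error depends. The CV divided by that of counting error alone had a median of 1.13 for the collagen chain genes and 0.896 for all genes. The observed CV was above the counting error for 16 of 24 collagen chain genes (66.7%) and for 42.6% of all genes. It was more than 2 times the counting error for 0 of 24, but this was also rare over all genes, with 671 of 12905. The largest such factor was 1.88 in Col12a1, with a CV of 7.37% against 3.93%, followed by 1.73 in Col4a2 and 1.70 in Col1a2. Of the 24 genes, 13 had their highest value in library 2, among them all 5 network chains and all 3 classical type VI chains, and 6 and 5 in libraries 1 and 3. Over all 12905 genes, 35.0% were highest in library 2. These differences are between replicates of 1 condition and were not tested.

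**Figure D5:**
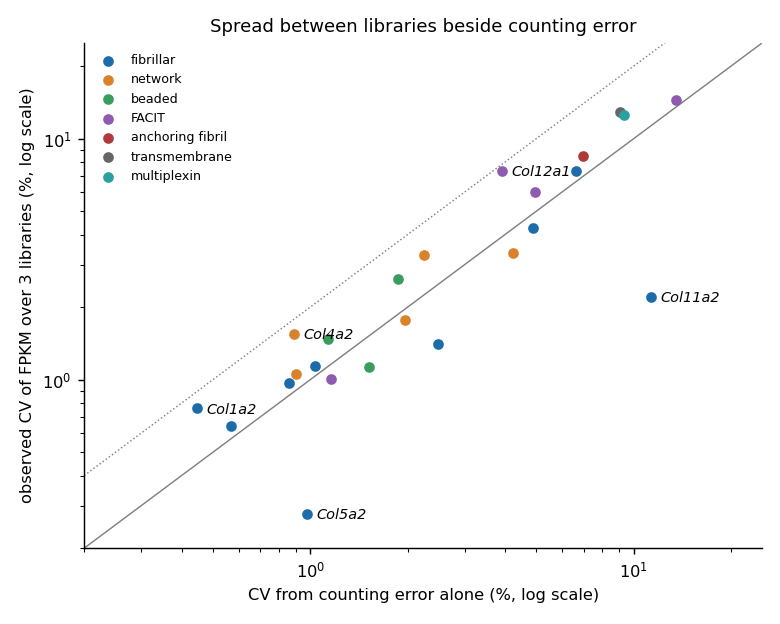
Observed CV of FPKM over the 3 libraries (y axis, percent, log scale) against the CV that counting error alone gives (x axis, percent, log scale) for the 24 collagen chain genes at or above 1 FPKM, coloured by class. The solid line marks equality and the dotted line 2 times the counting error. No gene lies above the dotted line, Col12a1 is nearest to it, and Col5a2 and Col11a2 lie far below the solid line.

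Several collagen chain genes are neighbours in the genome (GENCODE M21, GRCm38), with no annotated protein-coding gene between them. There were 8 such pairs, and the 3 pairs of type IV genes lie head to head. Col4a1 (chr8:11198423-11312826) and Col4a2 (chr8:11312805-11449287) overlap by 22 bases at their starts and were both high, with means of 402 and 325 FPKM. Col4a4 and Col4a3 on chromosome 1 are 71 bases apart and were both near 0, with 0.116 and 0.0806 FPKM. Col4a6 and Col4a5 on chromosome X are 1308 bases apart, with 11.2 and 32.9 FPKM. The 3 pairs thus stood at different levels, and the 2 genes of a pair differed 1.24-fold, 1.43-fold and 2.95-fold in mean FPKM, of which the second rests on 10 and 28 fragments. Col3a1 and Col5a2, tail to tail at a distance of 24614 bases, differed 2.11-fold, and Col6a2 and Col6a1, on the same strand and 85161 bases apart, 2.71-fold. The cluster of Col6a6, Col6a5 and Col6a4 on chromosome 9 had means of 0.0106, 0.0115 and 0.322 FPKM.

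The bases between Col4a4 and Col4a3 are shown because they are the whole of what separates the starts of these 2 genes (RefSeq promoter window of Col4a4, GRCm38.p6, chr1:82586850-82586920, minus strand), and capitals would mark a match, on either strand, to the motif TATAAA, to the motif CCAAT or to the motif GGGCGG, of which this stretch holds none.
Col4a4: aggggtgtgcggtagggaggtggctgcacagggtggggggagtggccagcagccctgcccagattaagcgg

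The same motifs were counted in the 250 bases before the start of each gene in the RefSeq windows, which held 35 of the 44 collagen chain genes and 27025 genes in all. On both strands together, GGGCGG was present for 14 of 20 collagen chain genes with a mean of at least 1 FPKM (70.0%) and 7 of 15 with a lower mean (46.7%), against 32.9% of all genes. CCAAT was present for 10 of 20 and 2 of 15, against 34.5% of all genes, and TATAAA for 3 of 20 and 2 of 15, against 13.0%. The windows of the 20 genes had a median GC content of 60.2%, against 52.0% over all genes, and GGGCGG is itself made of G and C. A CCAAT read on the other strand can share 2 bases with GGGCGG, and the windows of Col4a1 and Col4a2 overlap. All genes here include those below 1 FPKM, and the shares among all genes at or above 1 FPKM were not determined. Of the collagen chain genes at or above 1 FPKM, Col1a1, Col5a2, Col12a1 and Col9a3 had no window. These counts describe letters in fixed windows and were not tested.

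Other annotated genes share genomic sequence with 16 of the 24 collagen chain genes at or above 1 FPKM, and for 6 of them an overlapping gene was itself at or above 1 FPKM. Whether counting used the strand is not stated, so reads from such overlaps could not be assigned with certainty. For Col4a1 and Col4a2 the overlap is the 22 bases above. Col18a1, at 2.41 FPKM, overlaps 8825 bases of Slc19a1, a folate carrier gene on the other strand at 36.7 FPKM, a level above that of Col18a1 itself. Col20a1, at 9.97 FPKM, overlaps BX649560.1 on the same strand by 741 bases, which stood at 5.27 FPKM. Col5a1 overlaps Gm13372 (9.32 FPKM) and Col1a2 overlaps Gm43921 (3.28 FPKM), both far below the collagen gene.

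Genes that work on collagen chains were counted against the same limit of 1 FPKM, which 49.2% of the 21980 protein-coding genes passed. The lists were short and their counts were not tested. Of 17 genes for chain modification and folding, 15 had a mean of at least 1 FPKM. The highest was Serpinh1, the collagen chaperone HSP47 of the endoplasmic reticulum, at 811, 807 and 801 FPKM, and P4hb, a subunit of prolyl 4-hydroxylase, had a mean of 454 FPKM. The prolyl 4-hydroxylase catalytic subunits P4ha2, P4ha1 and P4ha3 stood at means of 119, 63.8 and 9.29 FPKM, and the lysyl hydroxylases Plod1, Plod2 and Plod3 at 74.9, 60.9 and 60.6 FPKM. P3h2, a prolyl 3-hydroxylase, and Colgalt2, a collagen galactosyltransferase, were listed at 0 in every library, while the related P3h1 and Colgalt1 stood at 36.6 and 46.0 FPKM. Of 10 genes for export and propeptide removal, 7 reached 1 FPKM. Pcolce, which enhances removal of the C-propeptide, was highest at 236, 229.7 and 234 FPKM, and the protease it enhances, Bmp1, had a mean of 38.5 FPKM. Adamts2 and Adamts14, which remove N-propeptides, stood at 10.2 and 8.46 FPKM, and the related Adamts3 was listed at 0.

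Of 8 collagen receptor genes, 5 reached 1 FPKM, a limit passed by 49.2% of protein-coding genes. Itgb1, the beta subunit shared by the collagen-binding integrins, stood at 463 FPKM, but of the alpha subunits only Itga1 passed 1 FPKM, at 3.87 FPKM, with Itga10, Itga2 and Itga11 at 0.730, 0.222 and 0.0710 FPKM. Ddr2, a receptor kinase for fibrillar collagen, had a mean of 256 FPKM, against 39.4 FPKM for Ddr1. The endocytic collagen receptor Mrc2 stood at 114 FPKM. Of 8 fibril partners, 5 reached 1 FPKM, with Fn1 at 4377 FPKM, Bgn at 933 FPKM and Sparc at 489 FPKM, while the small proteoglycan genes Lum and Fmod were listed at 0. Of 5 collagenase genes, Mmp2 (365 FPKM), Mmp14 (269 FPKM) and Mmp13 (7.91 FPKM) passed 1 FPKM, Ctsk had a mean of 0.341 FPKM and Mmp8 was listed at 0.

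Markers of other cell types were counted against the limit of 1 FPKM, and the cartilage chains were set beside the chondrocyte markers. Of 8 chondrocyte markers only Sox9, a transcription factor, passed 1 FPKM, at 42.5 FPKM, and Cnmd, Hapln1 and Matn3 were listed at 0. The cartilage chains ranged from 0 FPKM for Col9a1 through 0.284 FPKM for Col2a1 to 11.1 FPKM for Col11a1. Of 6 osteoblast markers Runx2 (33.4 FPKM) and Alpl (1.39 FPKM) passed 1 FPKM, and Ibsp was listed at 0. Of 6 endothelial markers Vwf (1.64 FPKM) and Cdh5 (1.35 FPKM) passed 1 FPKM, and Emcn was listed at 0. The part of such cells in the collagen levels was not tested.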

How the data were processed

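UMI-RNAseq was measured in 3 libraries of NIH3T3 cells. According to the methods and the submitters' processing notes, UMI-tools (1.0.0) was used to identify UMIs, reads were mapped with HISAT2 (2.0.4), duplicates with the same UMI and location were removed, and reads were counted per gene with HTSeq (0.6.1). DESeq (1.10.1) is also named, without a role. The authors deposited FPKM values, 1 column per library. The genome build and annotation of the counting are not given in the sources used here. The number of value columns left unused was 0.

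No model for counts was used on the FPKM. Fragments were recovered as FPKM multiplied by the mean isoform length in GENCODE M21 (GRCm38) and the library total, and were whole within 0.01 in every library for 99.2% of 26178 genes and for 44 of 44 collagen chain genes. An FPKM is tied to this length, which can shift ratios between genes. Ratios used a two-sided exact sign-flip permutation test. Spread was the SD of log2(FPKM + 1). Intervals and floors (3 fragments) cover counting error only. Tracts were runs of at least 6 glycine triplets in the longest complete coding sequence, found in 21402 genes. Calculations were tested on simulated data and run in Python 3.11.15 with numpy 2.4.6, pandas 2.3.3 and scipy 1.17.1, and figures were drawn with matplotlib 3.10.9.

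The members, classes and lists were chosen with earlier results of these data known. All members are accounted for by class, with values per library for those at or above 1 FPKM, and from every other list the count, the highest, the lowest and those listed at 0. P4hb, the P4ha, Plod, P3h and Colgalt genes, Bmp1, Adamts2, Adamts14, the receptors below Itgb1, Bgn, Sparc, Mmp14, Mmp13, Ctsk, Fap, Postn, Alpl and Cdh5 were named after their values were seen. Alternatives were other limits, gene lengths, pseudocounts and scalings, and leaving out each library. The alternatives for the level of single genes were added after the data were examined. Of the retina list, 1 gene is not reported here and was left out of its counts. No samples were compared between conditions, since there is 1.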

Additional observations from a re-analysis of the deposited data

How the results depend on the processing

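Of 192 values under an alternative, 161 stayed within the limits set for a change, 27 moved and 4 reversed. The 161 are no measure of stability. They include ratios after rescaling each library to a common total, which cannot change a ratio within a library. The limits were also wide. Values within them include 31 and 16 detected genes at limits of 0.1 and 10 FPKM, against 24. Others are log2 ratios: 2.60 against 3.61 for Col4a1 to Col4a5 (longest isoform), and 0.82 against 0.03 for beaded to FACIT (fragments). Gene length accounted for all reversals by construction. The log2 ratio of Col4a1 to Col4a2 was -0.035 in fragments and -0.071 with the longest isoform, coding or not, and that of Col6a1 to Col6a3 was -0.84 in fragments. The log2 ratio of Col8a1 to Col8a2, against the floor, was 9.75 in fragments, 9.51 with the longest isoform, coding or not, and 5.43 with a pseudocount of 1. Counting every gene above 0 FPKM gave 41 collagen chain genes. In fragments the class shares were 68.4% fibrillar, 17.5% network, 8.82% beaded, 5.01% FACIT, 0.0697% multiplexin and 0.121% anchoring fibril. With the longest isoform they were 69.6% fibrillar, 16.3% network, 8.40% beaded, 0.0789% transmembrane, 0.0739% multiplexin and 0.0776% anchoring fibril, and with only genes at or above 1 FPKM the 2 genes under other fell to 0%. The collagen share was 1.20% of fragments, and 0.760% of FPKM without mitochondrial genes, 0.844% of protein-coding genes and 0.798% of genes of at least 200 nt. The median spread was 0.0276 with a pseudocount of 0.1, 0.0179 at or above 10 FPKM, 0.0287 with no filter and 0.01997 with median-of-ratios scaling, and 0.0183 to 0.0246 when 1 library was left out, with 0.0183 without library 1. For the level of single genes, 48 of 144 values moved, 0 of them when a library was left out. Depth limits the 20 genes below 1 FPKM. No paired analysis was possible because all libraries share a condition.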
